A study of Mus musculus with 7 samples.

Results

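The receptors for gonadal and pituitary hormones were followed in the mouse adrenal gland across development and between the sexes. The 6 genes were taken by symbol from a table of 35976 genes: Esr1 and Esr2 (oestrogen receptors alpha and beta), Pgr (the nuclear progesterone receptor), Prlr (the prolactin receptor), Lhcgr (the luteinizing hormone receptor) and Ghr (the growth hormone receptor). RNA came from pools of adrenal glands. The mice were of the inbred strain C57BL/6J, with no genetic change or treatment named for any group. The groups were E18.5 embryos shortly before birth (40 glands, sex not determined), newborns at P1 (16 male and 22 female glands), 2-week-old mice (6 glands of each sex) and 12-week-old adults (4 glands of each sex). Each group was 1 library, so single levels carry no replicate error.

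Esr1, Esr2 and Pgr are nuclear receptors, which bind their steroid inside the cell and act as transcription factors. Prlr and Ghr are single-pass membrane receptors of the cytokine receptor family, which signal through the kinase JAK2 and the transcription factors STAT5A and STAT5B. Lhcgr is a G protein-coupled receptor that raises cyclic AMP, as the adrenocorticotropic hormone receptor Mc2r does in adrenal cortex. The mouse adrenal cortex holds an inner X-zone that is lost at puberty in males and later in females, and adult adrenal weight is higher in female mice.

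All 6 receptors had at least 1 read in every library, in libraries of 15184210 to 23551289 reads. The 7 genes of an adrenal cortex list (such as Nr5a1 and Star) and the 6 of a chromaffin list (such as Th) had reads in all 7 libraries. The summed cortex list ran from 247747 normalized counts (P1 female) to 1118690 (12-week female). Transcripts of 4 Y-linked genes in the library labelled P1 female had a median of 21.0% of their level in P1 male, against 0.0609% for 2-week female over 2-week male and 0.0132% at 12 weeks. The share of male tissue in that library was not tested, and how the calls between ages of the receptors and their pathway lists stood without it is given with those results. Ratios between the P1 libraries rest on it and have no value without it. That library also held 142253 normalized counts of 7 skeletal muscle genes. Liver markers were at 235987 to 330665 in the 3 libraries up to P1 and at 402.77 and 454.396 at 12 weeks. Limma called all 8 liver genes lower in each of the 2 steps after birth, where 10.5% and 9.89% of all genes were called lower. In bulk RNA of this kind, fewer cells of a type and less RNA per cell cannot be told apart.

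The 250 bases before the annotated starts are shown for the receptors on which the results turn, in 4 windows that hold no annotated exon, so that their letters can be set beside the levels. Prlr has 3 annotated starts in RefSeq (GRCm38.p6), and its gene spans chromosome 15, 10177238 to 10349180, on the plus strand (GENCODE M21). The first and second start of Prlr are shown because its level differed most clearly between the sexes, and Esr2 and Lhcgr because both were highest in the same library. Capitals mark matches to a STAT motif (TTCNNNGAA) or a GC box (GGGCGG).
Prlr start 1 (GRCm38.p6 chr15:10176988-10177237, plus strand): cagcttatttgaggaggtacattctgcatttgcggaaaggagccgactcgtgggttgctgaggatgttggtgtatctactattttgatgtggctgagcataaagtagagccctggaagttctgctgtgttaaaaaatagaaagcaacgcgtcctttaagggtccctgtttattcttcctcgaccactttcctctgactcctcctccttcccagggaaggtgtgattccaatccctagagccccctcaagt
Prlr start 2 (GRCm38.p6 chr15:10223656-10223905, plus strand): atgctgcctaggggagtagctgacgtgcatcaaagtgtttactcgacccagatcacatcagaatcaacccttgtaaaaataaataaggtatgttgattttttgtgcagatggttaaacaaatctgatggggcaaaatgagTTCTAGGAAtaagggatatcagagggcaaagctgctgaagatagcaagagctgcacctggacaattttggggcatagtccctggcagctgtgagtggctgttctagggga
Esr2 (GRCm38.p6 chr12:76177260-76177509, minus strand): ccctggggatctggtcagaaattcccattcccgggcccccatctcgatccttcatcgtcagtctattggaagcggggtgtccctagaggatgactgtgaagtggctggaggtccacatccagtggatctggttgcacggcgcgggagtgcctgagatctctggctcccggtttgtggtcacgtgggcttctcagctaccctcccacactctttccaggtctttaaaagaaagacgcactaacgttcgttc
Lhcgr (GRCm38.p6 chr17:88792015-88792264, minus strand): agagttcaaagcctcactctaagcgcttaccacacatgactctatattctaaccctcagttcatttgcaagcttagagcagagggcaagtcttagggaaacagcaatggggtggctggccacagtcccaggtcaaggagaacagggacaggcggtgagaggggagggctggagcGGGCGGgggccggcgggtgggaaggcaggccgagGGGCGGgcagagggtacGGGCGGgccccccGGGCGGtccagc

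Across the 10 such windows of the 6 genes, 6 motifs were searched on both strands. The full oestrogen response element GGTCANNNTGACC, the SF-1 motif AAGGTCA and the GATA motif AGATAA had no match in any of them. They were found in 0.0639%, 4.08% and 9.99% of 32851 promoter windows of the same length. The STAT motif TTCNNNGAA, found in 7.02% of all windows, matched once in Prlr start 2, 110 bases before the start, and once in the second window of Esr1. The GC box, found in 32.7% of all windows, matched 4 times in the Lhcgr window, 2 times in the first window of Ghr, once in that of Pgr, and not in those of Prlr and Esr2. The TATA motif TATAAA, found in 12.4% of all windows, matched in the Pgr window and in the second window of Ghr. A match or its absence in these bases is a description of the letters only.

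The membrane receptors Prlr and Ghr were by far the most abundant. Per kilobase of merged exon, the mean normalized count was 741 for Prlr, 176 for Ghr and 41.9 for Esr1, against 3.19 for Esr2, 3.11 for Pgr and 0.774 for Lhcgr. Prlr stood between the 91.6th and the 98.5th percentile of all genes on that scale in every library. Of its exon bases, 1.32% are shared with the gene Gm21973 on the same strand, and whether reads were counted by strand is not given in the sources used here.

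**Figure D1:**
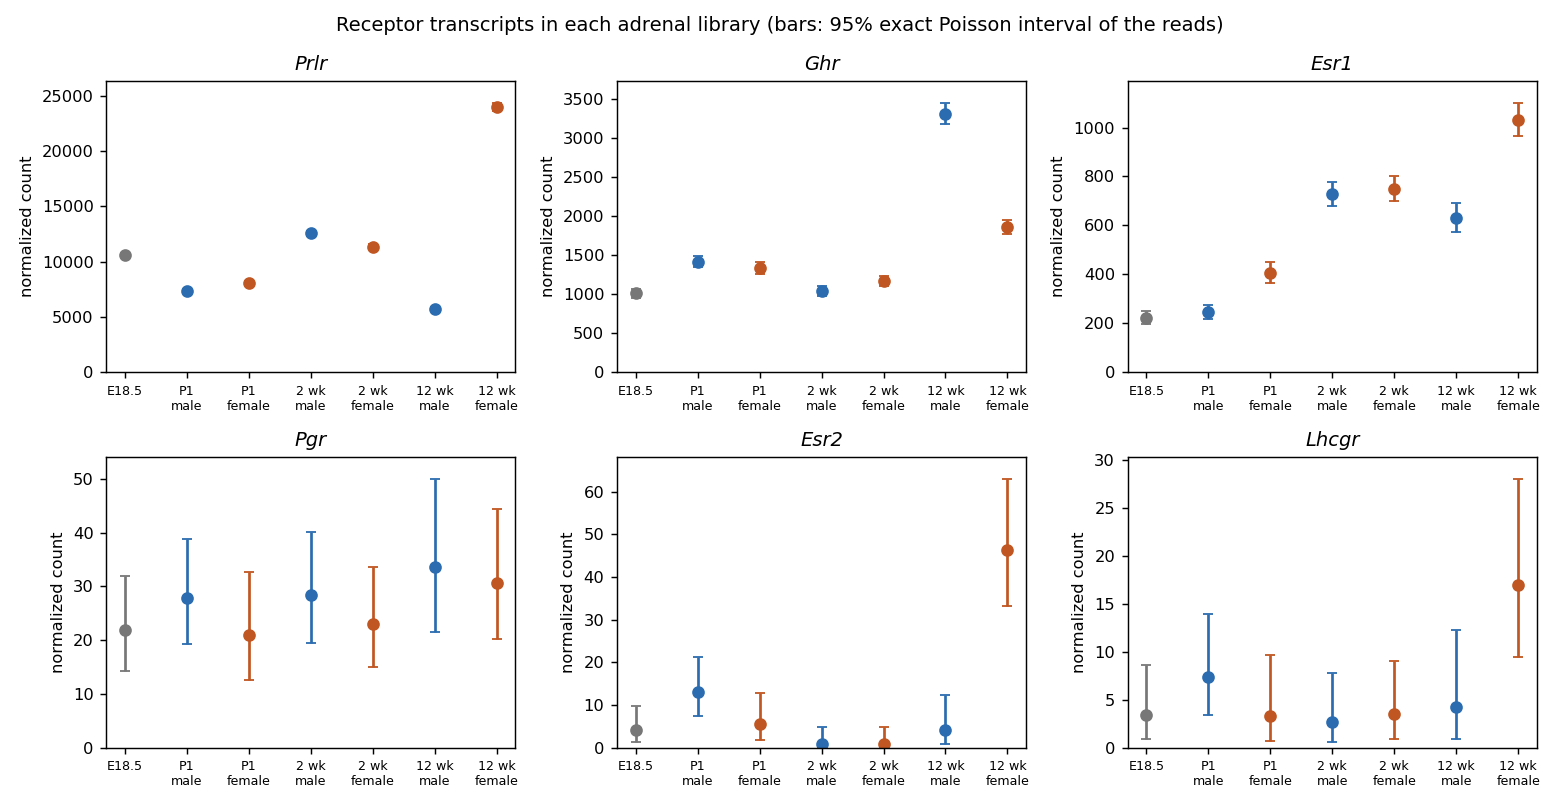
Normalized count (linear axis from 0, a separate scale for each gene) of the 6 receptors in each of the 7 libraries, with 95% exact Poisson intervals of the reads. Prlr and Esr1 were highest in 12-week female, Ghr was highest in 12-week male, and Esr2 and Lhcgr stood at 46.4 and 17.0 in 12-week female.

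In embryos Prlr had 10576 normalized counts. Newborn males had 7365 and newborn females 8051, males of 2 weeks 12555 and females of that age 11353, adult males 5679 and adult females 23987. The 2 adult libraries were thus the lowest and the highest of the 7, and the 2 sexes stood close together at P1 and at 2 weeks. Each step in the order of its levels exceeded the 95% counting interval.

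Ghr had 1011 normalized counts in the embryo. It was at 1416 (male) and 1333 (female) in newborns, at 1041 (male) and 1171 (female) at 2 weeks, and at 3311 (male) and 1863 (female) in adults. Both adult libraries were above all 5 younger ones, and the order of the sexes was the opposite of that of Prlr. P1 male and P1 female did not differ beyond counting error, nor did 2-week male and E18.5.

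Esr1 started at 221.8 normalized counts in embryos. Males had 244.7 as newborns, 727.7 at 2 weeks and 630.6 as adults, and females had 406.2, 749.0 and 1029.6 at these ages. The 4 libraries from 2 weeks on were all above the 3 earlier ones. The 2-week libraries did not differ beyond counting error, nor did P1 male and E18.5.

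Pgr had 21.8 normalized counts in embryos. Males had 27.8 as newborns, 28.5 at 2 weeks and 33.6 as adults, and females had 21.0, 22.9 and 30.5. None of its neighbours in that order differed beyond counting error, on 19 to 34 reads per library.

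Esr2 had 4.20 normalized counts in embryos. Males had 13.1 as newborns, 0.890 at 2 weeks and 4.19 as adults, and females had 5.52, 0.882 and 46.4. The 41 reads of 12-week female compare with 1 to 16 elsewhere, and its level was 3.54-fold that of the next library, P1 male (95% exact interval 1.95 to 6.76). Lhcgr had 3.36 normalized counts in embryos, then 7.36, 2.67 and 4.19 in males and 3.31, 3.53 and 17.0 in females of the 3 postnatal ages, from 3 to 15 reads. It too was highest in 12-week female, but 12-week female did not differ from the next library, P1 male, beyond counting error.

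From E18.5 to P1 the receptors were compared as ratios of single libraries, with 95% exact intervals that cover counting error only. Prlr was lower at P1, at 0.696 of the E18.5 level in males (0.678 to 0.716) and 0.761 in females (0.740 to 0.784). Ghr was higher, at 1.40 (1.30 to 1.51) in males and 1.32 (1.22 to 1.43) in females. Esr1 was at 1.10 (0.932 to 1.31) in males and 1.83 (1.56 to 2.15) in females, so that its ratio exceeded counting error only in the library labelled P1 female. Among the 6 receptors, 2 were at least 2-fold apart between E18.5 and P1 male, Esr2 (3.12, 1.09 to 10.9) and Lhcgr (2.19, 0.612 to 9.74), and 0 between E18.5 and P1 female. Of all genes tested, 8.85% and 13.5% were that far apart in these comparisons, and 5.04% were that much higher in P1 male than at E18.5. Esr2 and Lhcgr had 4 or 5 reads at E18.5. Kidney markers were highest in P1 male, at 8982 normalized counts against 1293 at E18.5 and 2521 in P1 female. Exocrine pancreas markers were also highest in P1 male, at 2627 against 20.2 at E18.5 and 30.9 in P1 female. The part of these tissues in the ratios was not tested.

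The changes with age after birth were fitted with limma over the 6 postnatal libraries, on log2(normalized count + 1) and with sex as a block. Low genes change less on that scale than in their counts. Each age is then 1 male and 1 female pool. With sex as a block, a difference between male and female pools that is the same at every age is removed. The error behind the p-values is therefore only the change of that difference from age to age. A sex difference that truly changes with age cannot be told from noise in this fit. The 3 comparisons between ages share libraries. Of the 6 receptors, 5 had a mean of at least 10 normalized counts, Esr2 only through its level in 12-week female, since its other 6 libraries averaged 4.80. No test is given for Esr2, for that reason, or for Lhcgr, whose mean was 5.91. Where a library is left out below, the other library of that age stands alone and is assumed to vary like those of the other ages.

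Esr1 rose after birth and stayed up in the adult. It was 1.22 ± 0.217 (SE) log2 units higher at 2 weeks than at P1 (limma, adjusted p = 0.0146) and 1.35 ± 0.217 higher at 12 weeks than at P1 (adjusted p = 0.00390). In males it was 2.97-fold higher at 2 weeks than at P1, and in females 1.84-fold. Without the library labelled P1 female, the 2-week difference was 1.40 with an adjusted p of 0.103 and the 12-week difference 1.53 with 0.0417. Leaving out P1 male ended both calls (adjusted p = 0.149 and 0.0598), and leaving out 2-week male ended that of 2 weeks (0.170).

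Ghr rose in the adult. It was 1.17 ± 0.244 log2 units higher at 12 weeks than at 2 weeks (limma, adjusted p = 0.0252) and 0.85 ± 0.244 higher than at P1 (adjusted p = 0.0315). The 12-week level was 3.18-fold the 2-week level in males and 1.59-fold in females. Without the library labelled P1 female, these differences were 1.17 (adjusted p = 0.0877) and 0.98 (0.142). Leaving out P1 male (0.0874 and 0.218) also ended both calls, leaving out 2-week male (0.86, 0.245) or 2-week female (1.48, 0.0760) ended the former, and leaving out 12-week male (0.42, 0.154) ended the latter. Both Ghr calls and the Esr1 call at 2 weeks were also lost without the filter on low genes or without limma's mean-variance trend, while edgeR on the recovered reads kept all 4 calls of the 2 genes.

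Fat cells carry much growth hormone receptor, so fat markers stand here beside Ghr. The 8 adipocyte genes summed to 2893 to 3065 normalized counts up to P1, 42551 and 47127 at 2 weeks, 35988 in 12-week male and 28659 in 12-week female. Each adult sum was thus lower than both sums at 2 weeks. Much of the 2-week sums was Ucp1, at 19373 in male and 21706 in female, against 2705 and 2197 at 12 weeks. Fabp4 and Plin1 were also lower in both adult libraries than in both 2-week ones. Adipoq, Cfd, Lep and Retn were higher in both, and Cidec was mixed. The list's median log2 difference from 2 to 12 weeks was 0.69. Limma called 1 of the 8 genes higher and 2 lower from 2 to 12 weeks (37.5%, all genes 15.3%), where Ghr rose. From P1 to 12 weeks, where Ghr also rose, it called all 8 higher (all genes 17.6%), with a median of 6.59 log2 units. From P1 to 2 weeks, where Ghr was not called, it called 7 higher (all genes 5.89%). Between the adults, 12-week male had the higher level of 6 of the 8 genes and 12-week female that of the other 2. No adipocyte gene was at 0 from 2 weeks on, and the part of fat in the Ghr levels was not tested.

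Of the 4 receptors tested, 1 was called from P1 to 2 weeks, 1 from 2 to 12 weeks and 2 from P1 to 12 weeks, all higher at the later age. Of all genes tested, 16.4%, 15.3% and 41.2% were called in these comparisons, with 5.89%, 5.4% and 17.6% higher and 10.5%, 9.89% and 23.5% lower at the later age. The median log2 difference of the 4 receptors was 0.36, 0.22 and 0.73, against 0.00 (P1 to 2 weeks), -0.03 and -0.03 over all genes.

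Prlr and Pgr did not pass the test in any age comparison. Prlr differed by 0.63 ± 0.497, -0.03 ± 0.497 and 0.60 ± 0.497 log2 units from P1 to 2 weeks, 2 to 12 weeks and P1 to 12 weeks (limma, adjusted p = 0.425, 0.974 and 0.367). The ratios of the sexes were opposite, since the 12-week level of Prlr was 0.452 of the 2-week level in males and 2.11-fold in females. Without 12-week male the difference from 2 to 12 weeks was 1.01 (adjusted p = 0.00868), and without 12-week female it was -1.08 (0.00469), each with 1 adult sample and a spread taken from the other ages. Leaving out either adult library also brought the step from P1 to 2 weeks under the threshold (0.0192 and 0.0150). Pgr differed by 0.08 to 0.39, with adjusted p from 0.429 to 0.911.

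**Figure D2:**
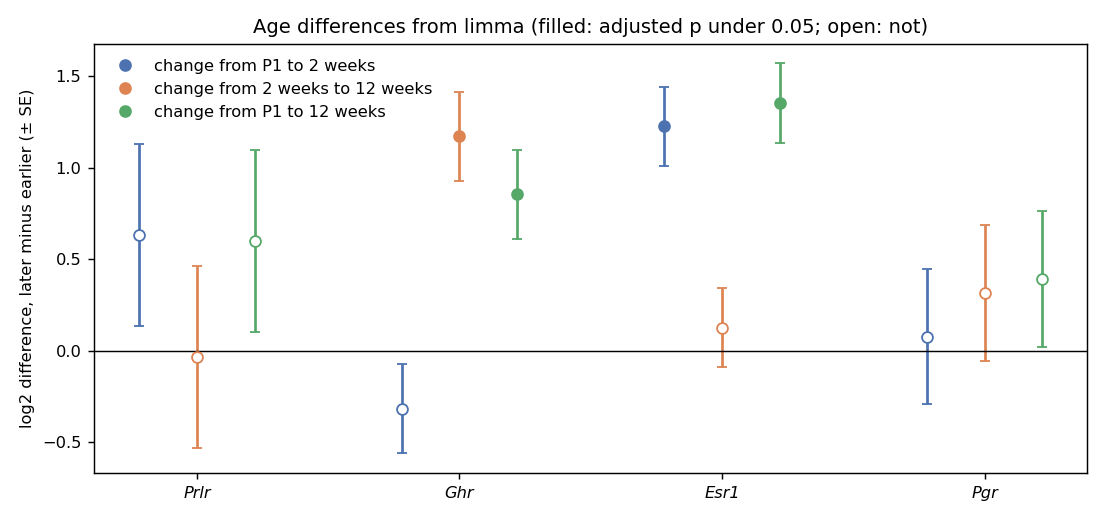
Log2 difference between ages (later minus earlier, ± SE, limma with sex as a block) for the 4 receptors tested, with filled points where the adjusted p was under 0.05. Filled points stand at 1.22 and 1.35 for Esr1 and at 1.17 and 0.85 for Ghr, while those of Pgr and Prlr are open.

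The sexes were compared at each age as ratios of 2 single libraries. At 12 weeks Prlr was at 5679 normalized counts in the male and 23987 in the female library, 4.22-fold higher in the female (95% exact interval 4.08 to 4.37). Only 0.592% of all genes tested had a lower male to female ratio. At P1 its male to female ratio was 0.915 (0.887 to 0.944), and at 2 weeks it was 1.11 (1.08 to 1.13).

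Esr2 was 11.1-fold higher in the female at 12 weeks (3.53 to 55.8), from 3 and 41 reads, and Lhcgr 4.05-fold (1.14 to 21.8), from 3 and 15 reads. Esr1 was 1.63-fold higher in the female, a male to female ratio of 0.612 (0.546 to 0.686). Ghr was the one receptor higher in the adult male beyond counting error, at 1.78 times the female level (1.67 to 1.89). Pgr, with a ratio of 1.10 (0.607 to 1.98), did not differ beyond counting error.

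At 12 weeks, 3 of the 6 receptors were at least 2-fold apart, all higher in the female, and 5 differed beyond counting error. Of all genes tested, 7.79% were at least 2-fold apart at that age, and 3.42% were that much lower in the male. Lhcgr is not among all genes tested, and Esr2 is among them only through its level in 12-week female. Their counts here and at P1 are therefore not like for like with these shares. Of the receptors tested with limma, only Prlr was that far apart at 12 weeks, and none at P1. At 2 weeks, 0 of 5 receptors were at least 2-fold apart (all genes 4.46%), with Esr2 left out because it had 1 read in each sex. Ghr had a ratio of 0.889 (0.821 to 0.962) at that age and Esr1 of 0.972 (0.881 to 1.07). At P1, 2 of 6 were at least 2-fold apart (all genes 7.04%), both higher in the male, as were 3.86% of all genes. They were Esr2 (2.37, 0.830 to 8.28) and Lhcgr (2.22, 0.555 to 12.8), and neither exceeded counting error. Esr1 was at 0.602 (0.515 to 0.704) at P1, a ratio that rests on the library labelled P1 female.

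**Figure D3:**
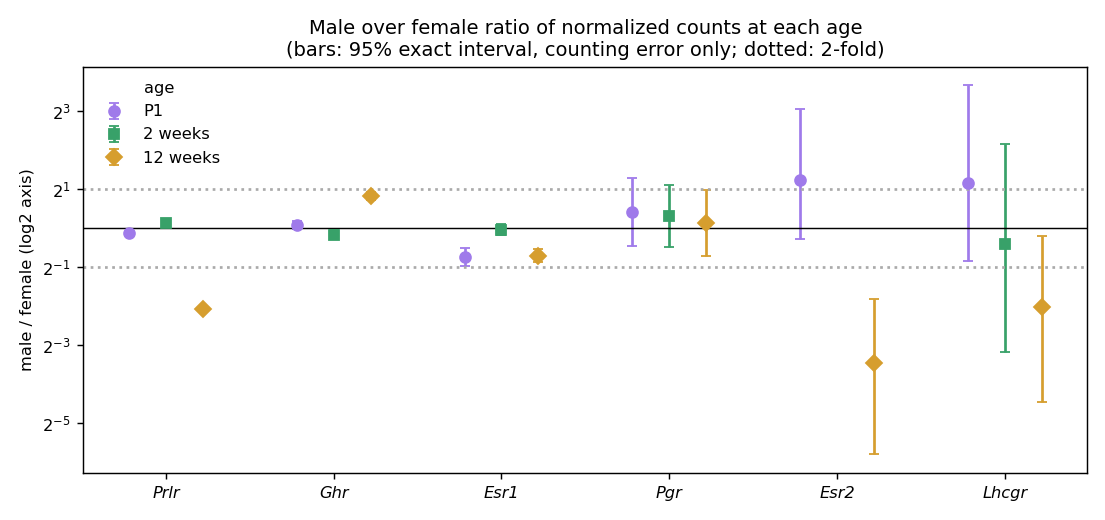
Male to female ratio of normalized counts (log2 axis) for each receptor at P1, 2 weeks and 12 weeks, with 95% exact intervals that cover counting error only and dotted lines at 2-fold (Esr2 has no point at 2 weeks). At 12 weeks Prlr (0.237), Esr2 (0.0904) and Lhcgr (0.247) lie below the lower line and Ghr (1.78) lies above 1.

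Averaged over the 3 postnatal ages in limma with age as a block, 0 of the 4 receptors tested were called different between the sexes. Their adjusted p was 0.999 in each case, and 0.00598% of all genes tested were called. The same fit called 0 of the 4 Y-linked genes, whose median difference was 7.73 log2 units, so it cannot show that the sexes were alike. Esr1 came nearest, at -0.49 ± 0.177 log2 units, male minus female, with an unadjusted p of 0.0291. edgeR called 0 genes of all tested, with 667 at an unadjusted p under 0.05.

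Whether the adult sex difference departs from that of the young was tested as the difference at 12 weeks minus the mean difference at P1 and 2 weeks, a limma fit with 1 residual degree of freedom. Prlr departed by -2.09 ± 0.319 log2 units (adjusted p = 0.00101), the 1 receptor of 4 that was called, where 1.58% of all genes tested were called, 0.861% with a positive and 0.718% with a negative departure. Its difference kept its size but not its call with edgeR (-2.08, adjusted p = 0.160), without the mean-variance trend (0.360) and without the filter on low genes (0.539). In simulated data 6.25 to 11.3% of this fit's calls were false. There, genes of equal mean were given the same spread, as the mean-variance trend assumes. That share therefore does not cover genes whose spread departs from the trend. Set against 2 weeks alone, without the library labelled P1 female, the departure was -2.22, a value with no test. Ghr departed by 0.87 ± 0.292 (adjusted p = 0.184), Esr1 by -0.32 (0.871) and Pgr by -0.21 (0.978).

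Cortex genes also differed between the adult libraries, though not alike, and their levels stand beside the Prlr result. In 12-week male and female Star was at 372882 and 357347, Cyp11a1 at 62866 and 64654, and Hsd3b1 at 225943 and 355249. The other genes of the list were also higher in the female. Limma called 0 of the 7 for the adult departure (all genes 1.58%). The 7 cortex genes summed to 839597 normalized counts in 12-week male and 1118690 in 12-week female. As a percentage of that sum, Prlr was at 1.97% at E18.5, 1.95% and 3.25% in P1 male and female, 2.47% and 2.21% at 2 weeks, and 0.676% and 2.14% at 12 weeks. The 12-week male library was thus lowest on this scale too, with a male to female ratio of 0.315. On the same scale the 12-week ratio was 2.37 for Ghr and 0.816 for Esr1. X-zone genes summed to 1447 in 12-week male and 4196 in 12-week female, and to 7577 and 30148 at 2 weeks. Most of the adult sums was Thrb, at 1444 in 12-week male and 3394 in 12-week female. Pik3c2g was at 0 and 28.3 in these libraries. The best known X-zone gene is Akr1c18 (20-alpha-hydroxysteroid dehydrogenase). Akr1c18 itself was at 5346 and 26949 in male and female at 2 weeks and at 2.80 and 773.9 at 12 weeks. Prlr was at 12555 and 11353 at 2 weeks and at 5679 and 23987 at 12 weeks. The part of the X-zone in the adult Prlr levels was not tested.

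The hormones themselves were close to absent. Prl (prolactin), Fshb and Tshb (the beta subunits of follicle-stimulating and thyroid-stimulating hormone) had no read in any library, and Gh (growth hormone) had 1 read, at E18.5. Lhb and Cga, the subunits of luteinizing hormone, and Pomc, the precursor of adrenocorticotropic hormone, had at most 11.0 normalized counts together with the others. All 7 were at 0 in both 12-week libraries, and none could be tested.

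The pathways of the receptors were described through 8 gene lists, of which 91 genes other than the receptors were tested. Limma called 21 of them from P1 to 2 weeks, 9 from 2 to 12 weeks and 36 from P1 to 12 weeks, and edgeR on the recovered reads kept all of these calls. Without the library labelled P1 female 0, 5 and 13 of the calls were kept, and without P1 male 0, 5 and 16. Leaving out 2-week male kept 0, 1 and 24 of them, while 7, 1 and 24 were kept when 2-week female was left out. None of the 21 calls from P1 to 2 weeks was thus kept when either P1 library was left out. Of the 4 adult departures called, 0 were kept with edgeR, without the trend or without the filter.

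Of 15 other steroid and pituitary hormone receptors, 12 were tested. From P1 to 2 weeks 4 rose and 1 fell (41.7%, all genes 16.4%), from 2 to 12 weeks 1 rose (8.33%, all genes 15.3%), and from P1 to 12 weeks 4 rose and 3 fell (58.3%, all genes 41.2%). The list's median log2 difference was 0.61, -0.41 and 0.28, against 0.00 (P1 to 2 weeks), -0.03 and -0.03 over all genes. Tshr, the thyroid-stimulating hormone receptor, rose in each step, by 1.36 ± 0.312 and then 1.60 ± 0.312 log2 units (limma, adjusted p = 0.0320 and 0.0205). Leaving out P1 female gave p of 0.162 and 0.0696, while the rise from P1 to 12 weeks, 2.96 ± 0.312, passed with it and without it (0.000845 and 0.0266). Avpr1a, a vasopressin receptor, fell by 1.78 log2 units from P1 to 2 weeks (0.0409), and without P1 female the difference was -1.24 (0.300). Fshr, the follicle-stimulating hormone receptor, had no read in any library.

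Oxtr, the oxytocin receptor, was chosen after its values were seen, as the 1 gene of that list with an adult departure of the sex difference. It was at 2062 and 2170 normalized counts in P1 male and female, 4929 and 6534 at 2 weeks, and 1032 and 7154 at 12 weeks, 6.93-fold higher in the adult female (6.42 to 7.49). Like Prlr it was lower in 12-week than in 2-week male and higher in 12-week than in 2-week female. Its departure was -2.55 ± 0.293 log2 units (limma, adjusted p = 3.85e-05). With edgeR the adjusted p was 0.0781, and against 2 weeks alone the departure was -2.39, with no test.

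Below Prlr and Ghr in the pathway, 13 JAK-STAT signal transducers were tested. From P1 to 2 weeks 3 rose and 1 fell (30.8%, all genes 16.4%), from 2 to 12 weeks 1 rose and 2 fell (23.1%, all genes 15.3%), and from P1 to 12 weeks 2 rose and 3 fell (38.5%, all genes 41.2%). The 2 that fell in the adult were Stat5a and Stat5b, the transcription factors that these receptors activate. Stat5a was at 322.6 normalized counts at E18.5, 343.7 and 490.1 in P1 male and female, 1241 and 1281 at 2 weeks, and 472.6 and 601.9 at 12 weeks. It rose by 1.62 ± 0.176 log2 units from P1 to 2 weeks (limma, adjusted p = 0.00381) and then fell by 1.24 log2 units to 12 weeks (0.00731). Stat5b moved the same way, by 0.87 ± 0.178 (0.0225) and -0.74 ± 0.178 (0.0378). For Stat5a the p without P1 female were 0.0572 and 0.0393, and for Stat5b 0.118 and 0.0837. Jak2, the kinase bound to both receptors, stayed between 1433 and 1960 normalized counts and passed no test (adjusted p from 0.443 to 0.796 between ages). None of the 13 departed in the adult sex difference.

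The 15 inhibitors of the pathway gave 2 that fell from P1 to 2 weeks, Ptpn6 (a phosphatase) and Socs3 (a suppressor of cytokine signalling), or 13.3% (all genes 16.4%), and none called from 2 to 12 weeks (all genes 15.3%). The adjusted p of Ptpn6 was 0.0969 and that of Socs3 0.106 without P1 female. From P1 to 12 weeks 2 rose and 3 fell (33.3%, all genes 41.2%). Socs2 and Cish, feedback inhibitors that STAT5 induces, were not called in any comparison. Socs2 was at 790.6 normalized counts at E18.5, 714.3 and 525.4 in P1 male and female, 252.6 and 312.3 at 2 weeks, and 248.9 and 476.3 at 12 weeks. Cish was at 166.4, then 171.8 and 147.9, 79.2 and 82.0, and 54.5 and 150.5. In the adults Socs2 was 1.91-fold (1.60 to 2.29) and Cish 2.76-fold (1.92 to 4.05) higher in the female, the sex in which Prlr was higher. The departure of Cish was -1.53 log2 units with an adjusted p of 0.146, and that of Socs2 did not pass either (0.255).

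**Figure D4:**
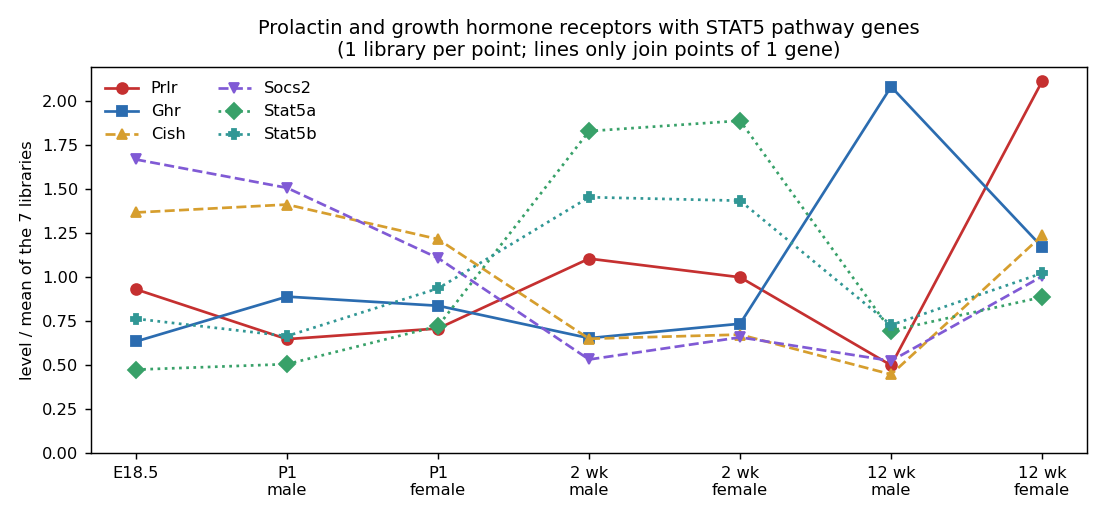
Level of Prlr, Ghr and genes of the STAT5 pathway in each library, divided by the mean of the 7 libraries. Prlr reached 2.11 times its mean in 12-week female and 0.500 in 12-week male, Ghr 2.08 in 12-week male, and Stat5a 1.83 and 1.89 at 2 weeks.

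Of 9 growth hormone targets, 8 were tested. From P1 to 2 weeks 1 rose and 3 fell (4 of 8, all genes 16.4%), from 2 to 12 weeks 2 fell (2 of 8, all genes 15.3%), and from P1 to 12 weeks 3 fell (37.5%, all genes 41.2%). The list's median was -1.13, -0.16 and -0.82 log2 units in these comparisons, while Ghr itself differed by -0.32, 1.17 and 0.85. Igf1, insulin-like growth factor 1, the main growth factor that growth hormone induces in liver, fell by 1.61 log2 units from P1 to 2 weeks (limma, adjusted p = 0.00503) and was 2.11 ± 0.193 lower at 12 weeks than at P1 (0.000523). Without the library labelled P1 female these p were 0.0806 and 0.0219, and without P1 male 0.0822 and 0.0192. Its 12-week levels were 1025 in the male and 844.0 in the female library, against 3494 and 4594 at P1. Serpina1a, a plasma protein gene that is also in the liver list, fell by 3.37 and then 5.08 log2 units in the 2 steps (adjusted p = 0.117 and 0.0395 without P1 female), and the summed liver list was lower with it. Igfals, the partner of insulin-like growth factors in plasma, stayed between 9.79 and 44.2 normalized counts and was not called. Igfbp3, an insulin-like growth factor binding protein, departed in the adult sex difference by 1.34 ± 0.292 (0.0201), at 4947 in 12-week male and 1759 in 12-week female. That call was lost with edgeR (0.317), without the trend (0.482) and without the filter (0.614), and against 2 weeks alone the departure was 1.499, with no test. It was chosen after its values were seen.

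Of 14 oestrogen and progesterone targets, Pgr among them, 12 were tested. From P1 to 2 weeks 0 rose and 2 fell (16.7%, all genes 16.4%). These were Igfbp4, which was 1.34 ± 0.138 log2 units lower (limma, adjusted p = 0.00347), and the nuclear receptor Nr2f2, which was 0.71 ± 0.163 lower (0.0326). Without the library labelled P1 female these p were 0.0585 and 0.176, and without P1 male 0.0787 and 0.102. From 2 to 12 weeks 1 rose (8.33%, all genes 15.3%), the lysosomal protease Ctsd (adjusted p = 0.0226, and 0.0693 without P1 female), and from P1 to 12 weeks 1 rose and 4 fell (41.7%, all genes 41.2%). The list's median was -0.16, 0.10 and 0.01 log2 units. Greb1, a cofactor that oestrogen induces in breast cells, was at 3705 normalized counts in 12-week male and 1225 in 12-week female, opposite to Esr1 and Esr2. It departed in the adult sex difference by 1.87 ± 0.369 log2 units (0.00971). With edgeR its adjusted p was 0.381, and against 2 weeks alone the departure was 1.28, with no test.

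The 7 membrane progesterone receptors were all tested, and Pgrmc1, a membrane-bound haem protein of that list chosen after its values were seen, was at 5199.5 to 8294 normalized counts against 21.0 to 33.6 for Pgr. None was called from P1 to 2 weeks or from 2 to 12 weeks. From P1 to 12 weeks Pgrmc2 and Paqr7 rose (0.49 and 0.62 log2 units) and Paqr9 fell (-1.91), 42.9% of the list where 41.2% of all genes were called. Their adjusted p were 0.111, 0.162 and 0.0562 without P1 female. Of 14 coregulators and chaperones of steroid receptors, none was called in either step, and 2 fell from P1 to 12 weeks, among them the acetyltransferase gene Crebbp (-0.60 log2 units, adjusted p = 0.0169, and 0.0986 without P1 female). That is 14.3% of the list, where 41.2% of all genes were called.

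The 15 genes downstream of a receptor that raises cyclic AMP, such as Lhcgr, gave 4 that rose from P1 to 2 weeks (26.7%, all genes 16.4%). They were the adenylyl cyclases Adcy3 (chosen after its values were seen) and Adcy9, the protein kinase A subunit Prkar2b and the transcription factor Crem. When P1 female was left out, the adjusted p of these 4 were 0.103, 0.0696, 0.126 and 0.0696. Crem rose again from 2 to 12 weeks, by 0.91 ± 0.169 log2 units (limma, adjusted p = 0.0174), while the phosphodiesterase Pde4d fell (13.3% of the list, all genes 15.3%). From P1 to 12 weeks 3 rose and 3 fell (40.0%, all genes 41.2%). Pde8b, a phosphodiesterase that breaks down cyclic AMP in adrenal cortex, departed in the adult sex difference by -1.18 ± 0.291 (0.0426), a call that was lost with edgeR (0.352), without the trend (0.526) and without the filter (0.614). Against 2 weeks alone the departure was -1.33, with no test. It was at 1275 in 12-week male and 3020 in 12-week female and was chosen after its values were seen. These genes serve Mc2r as well as Lhcgr, and Mc2r had 4247 to 8474 normalized counts against 2.67 to 17.0 for Lhcgr.

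Esr2 and Lhcgr are best known from the ovary, so gonad genes stand here beside their levels in 12-week female. Of the 10 gonad genes, 4 had a mean of at least 10. The list summed to 613 to 3683 normalized counts up to 2 weeks and to 162.2 in 12-week male and 220.6 in 12-week female. Most of that sum up to 2 weeks was Inha (inhibin alpha), which was at 120.2 and 81.5 in the adults. Gata4, a transcription factor of gonadal somatic cells, was at 105.9 at E18.5, 103.1 and 122.5 at P1, 14.2 and 24.7 at 2 weeks, and 14.0 and 73.5 at 12 weeks. It fell by 2.52 log2 units from P1 to 2 weeks (limma, adjusted p = 0.0244), a call that was lost without P1 male (0.217) or P1 female (0.110). In the adults it was 5.26-fold higher in the female (2.69 to 11.5).

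Foxl2, a transcription factor of ovarian granulosa cells, had 2.80 normalized counts in 12-week male and 12.4 in 12-week female, on 2 and 11 reads, and at most 0.818 before. Amhr2, the receptor for anti-Müllerian hormone, was at 12.6 and 43.0 at 12 weeks, 3.42-fold higher in the female (1.62 to 8.04). Amh (anti-Müllerian hormone) was at 0 in 12-week female. Insl3 (a testis hormone) and Fshr had no read in any library, 12-week female included. In 12-week male and female Cyp19a1 (aromatase) was at 0 and 2.26, Hsd17b3 at 0 and 3.39, and Cyp17a1 at 9.79 and 4.53. Foxl2, Amhr2, Amh, Insl3, Cyp19a1 and Hsd17b3 were chosen after their values were seen. Thus Foxl2 and Amhr2 were highest in the library in which Esr2 and Lhcgr were highest, and Gata4 was higher there than in the adult male. Cyp17a1 and Inha were lowest in that library, and Amh had no read there. The part of gonadal or gonad-like cells in the Esr2 and Lhcgr levels was not tested.

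**Figure D5:**
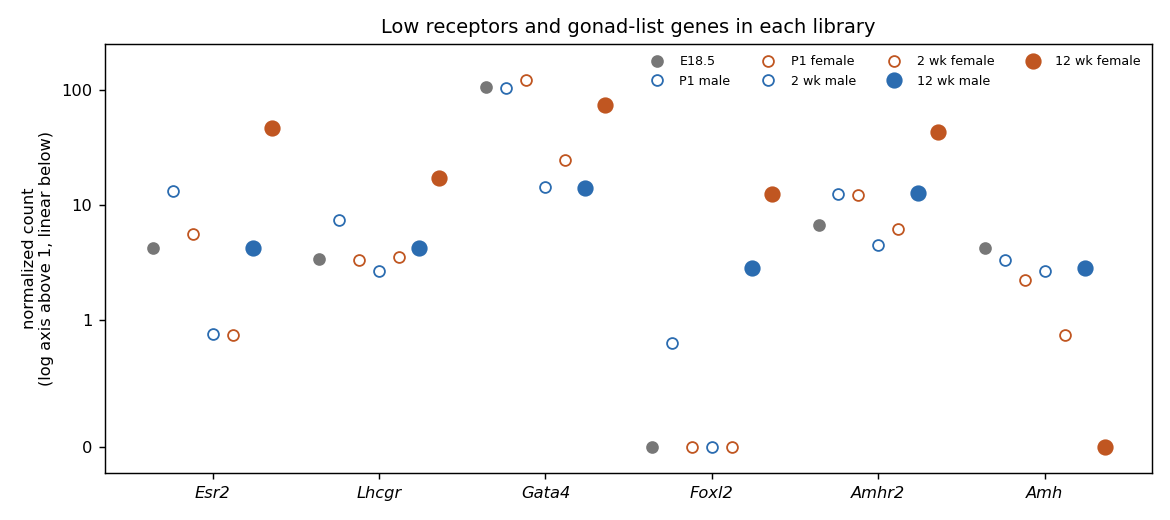
Normalized count (log axis above 1, linear below) of Esr2, Lhcgr and 4 genes of the gonad list in each library. In 12-week female Esr2 was at 46.4, Lhcgr at 17.0, Amhr2 at 43.0 and Foxl2 at 12.4, while Amh was at 0.

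The receptors did not share 1 pattern over the 7 libraries. Among their 15 pairs, Pearson's r of the log2 values was highest for Esr2 and Lhcgr, at 0.922 with a Spearman's rho of 0.571, and lowest for Prlr and Ghr, at -0.300. For each receptor with a mean of at least 10, the 3 genes nearest in pattern were found among 16719 others. This is a description over 7 libraries that differ in depth and in their levels of liver, muscle and fat markers, differences common to all genes of a library. For Prlr these were Ndufa3, a subunit of mitochondrial complex I (r = 0.994), Adh1, an alcohol dehydrogenase (0.977), and Srp54a (0.976). Ndufa3 had the same order of libraries as Prlr, from 669.7 normalized counts in 12-week male to 1375 in 12-week female. Adh1 went from 49614 to 159358 in the same 2 libraries. For Ghr they were Tmem220 (0.985), the ribosomal protein gene Rpl22 (0.982) and the exonuclease gene Xrn1 (0.982). For Esr1 they were Rbck1 (0.995), St6galnac6 (0.995) and the adenosine receptor gene Adora1 (0.994). For Esr2 they were Nbl1 (0.981), Itpkc (0.973) and Tmem234 (0.960). Esr2 passed that mean only through 12-week female, so its pattern rests on 41 reads there and 1 to 16 elsewhere. For Pgr they were Phf14 (0.962), Bvht (0.960) and 4930412F12Rik (0.958).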

How the data were processed

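RNA sequencing counts were analysed for 7 pooled adrenal libraries, 1 per group. The submitters' processing notes name CASAVA 1.8.2, HISAT2 2.1.0, HTSeq 0.9.1, DESeq2 2.11.40.6 and the build mm10. The table that the authors deposited holds a signal, counts divided by 1 size factor per library. With a tolerance of 0.001 reads, 100% of its values were whole reads, which were recovered. Recomputed size factors over 18040 genes differed by a relative 5.86e-10 at most. Of 35976 genes, 8722 had no read, and 16720 with a mean of at least 10 were tested.

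Differences were fitted with limma 3.58.1 (R 4.3.3) on log2(normalized count + 1) with a mean-variance trend, two-sided, with Benjamini-Hochberg adjustment over all genes and a threshold of 0.05. edgeR 4.0.16 on the recovered reads was an alternative and called 2795 (P1 to 2 weeks), 2396 (2 to 12 weeks), 6754 (P1 to 12 weeks), 0 (sex) and 11 (adult departure) genes, where limma called 2737, 2557, 6881, 1 and 264. Ratios of single libraries carry 95% exact (Clopper-Pearson) intervals and levels exact Poisson intervals, both for counting error only, because PCR copies cannot be told from separate molecules here. A ratio of at least 2-fold was counted, with levels under 3 reads raised to 3 reads for all genes. Nothing says that pools were separate litters. On 3 simulated data sets per comparison with 200 genes changed by 2 log2 units, the age fits recovered 93 to 98% and the departure fit 60 to 67% of them.

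The receptors, the 19 gene lists and the tests were chosen with earlier results of these data known. From each list at most the 2 highest and the 2 lowest called genes of each age comparison were named. Always named were the hormones and Fshr, Jak2, Stat5a, Stat5b, Socs2, Cish, Greb1, Gata4, Igf1 and Igfals. For each receptor with a mean of at least 10, the 3 genes nearest in pattern were named. Some genes that this rule names are not reported here. Exon lengths came from GENCODE M21 (GRCm38) and promoter windows from RefSeq (GRCm38.p6). Other pseudocounts, filters, scalings, a fit without the trend and leaving out each library were tried.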

Additional observations from a re-analysis of the deposited data

Results flagged for a closer look

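The sex difference of Prlr at 12 weeks departed from its mean at P1 and 2 weeks by -2.09 log2 units, male minus female, by limma's test of the difference itself (adjusted p = 0.00101). The male to female ratio of Prlr was 1.11 at 2 weeks against 0.915 at P1, on opposite sides of 1, and this difference was not tested. The same ratio at 2 weeks, 1.11, also stood opposite that of 12 weeks, 0.237. The ratio of Ghr was 1.78 at 12 weeks and 0.889 at 2 weeks, which was not tested between these ages alone, while its departure at 12 weeks from both younger ages did not pass limma's test (adjusted p = 0.184).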

How the results depend on the processing

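No paired analysis was possible because each group was 1 library and the labels number no replicates. Of 251 alternative values of the 4 receptors tested, 226 kept their side of the threshold, 20 lost the call, 4 gained one and 1 reversed. The reversed one was Prlr from 2 to 12 weeks without 12-week male, at 1.01 (-1.08 without 12-week female). Of 4529 values of 71 other genes, 4009 kept their side, 437 lost a call, 82 gained one and 1 reversed. The latter was Oxtr from P1 to 12 weeks without 12-week female, at -0.91 (1.64 without 12-week male). Changes of direction between values that were both uncalled were not counted as reversed. Such a change was that of Prlr from P1 to 12 weeks, from 0.60 to -0.44 without 12-week female. Of 104 single-library ratios, 93 kept their value within counting error and 11 moved. With a pseudocount of 1, 1 receptor in place of 2 was at least 2-fold apart at P1 and 1 in place of 2 between E18.5 and P1 male, and 1 at P1 after division by the cortex list, an alternative chosen after seeing the data. Over all genes, the calls from P1 to 2 weeks (2737) went to 0 without the filter on low genes (6431 at an unadjusted p under 0.05) and to 1672 without the trend, and ranged from 2 (without P1 male) to 4461 when each library was left out. Those from 2 to 12 weeks (2557) went to 0 without the filter (6036 unadjusted) and 1661 without the trend, and ranged from 421 (without 2-week female) to 3035. Those from P1 to 12 weeks (6881) ranged from 3207 (without P1 female) to 6271. The sex difference (1 call) gave 0 without the filter, without the trend and with edgeR (783, 638 and 667 unadjusted), and 0 to 51 with each library left out. The adult departure (264 calls, 144 higher and 120 lower) gave 94 with a pseudocount of 5 (41 and 53), 0 without the filter (2138 unadjusted), 83 with equal totals (33 and 50), 175 with equal upper quartiles (86 and 89), 0 without the trend (1393 unadjusted) and 11 with edgeR (3 and 8). Leaving out a library left that fit no residual degrees of freedom, so these fits were not run. Equal totals moved the median of all genes by -0.17 log2 units from 2 to 12 weeks and by -0.12 from P1 to 12 weeks, and equal upper quartiles moved the latter by 0.11. The cause of these changes was not tested. With 1 to 41 reads of Esr2 and 3 to 15 of Lhcgr per library, differences of these genes smaller than their intervals were not detectable at this depth.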
